A study of Mus musculus with 9 samples.

Results

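The aldo-keto reductases are enzymes that use NADPH or NADH to turn aldehydes and ketones into alcohols, or run that reaction backwards. A set of 10 members of the family, chosen by gene name among the 35275 entries of the deposited table, were followed in mouse liver: Akr1b3, Akr1b7, Akr1b8, Akr1c6, Akr1c13, Akr1c14, Akr1c19, Akr1c20, Akr1d1 and Akr7a5. Livers of C57BL/6 mice came from 3 groups of 3 libraries each: mice injected with AdipoRonPEG5, a PEGylated analog of AdipoRon; mice injected with AdipoRon, which is an orally active activator of AdipoR1 and AdipoR2; and mice injected with vehicle, which was PBS. For all 3 groups the labels give 5 mg/kg, 2 injections a day and 5 days of treatment, and since that dose is stated for PBS as well, what each compound was dosed at is uncertain. The labels give no diet, sex or age, no genetic change, and no word on whether each library is its own animal, so the p-values measure the spread between these libraries, which may be technical. Total counts were 13942322 to 18508950 in 8 libraries and 39473195 in vehicle 1.

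In liver the family serves several ends. Akr1d1, the steroid 5-beta-reductase, saturates the sterol ring on the way to bile acids, and the Akr1c enzymes are hydroxysteroid dehydrogenases that also handle xenobiotic ketones and alcohols. The Akr1b enzymes are aldose reductases and their relatives, of which Akr1b3 opens the polyol pathway from glucose to sorbitol, and Akr7a5 reduces aflatoxin dialdehyde and succinic semialdehyde. Several aldo-keto reductase genes of rodents and humans are known targets of NRF2, the transcription factor that binds antioxidant response elements.

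Some of these genes are close copies of one another, which bears on how short reads are assigned to them. Over their coding sequences (GENCODE M21, GRCm38) Akr1c13 shared 96.2% of bases with Akr1c12, Akr1c6 shared 92.3% with Akr1c20, and Akr1b8 shared 85.1% with Akr1b10. The closest pair and the most distant of these are shown over 150 coding bases each, counted from the start codon, with capitals at the bases that differ within the pair. Each stretch was picked as the gap-free 150 bases with the most differences, so the pairs are more alike over the whole coding sequence. The Akr1c13 and Akr1c12 stretches run from base 261 to base 410 and differ at 16 bases, and the Akr1b8 and Akr1b10 stretches run from base 258 to base 407 and differ at 32.
Akr1c13: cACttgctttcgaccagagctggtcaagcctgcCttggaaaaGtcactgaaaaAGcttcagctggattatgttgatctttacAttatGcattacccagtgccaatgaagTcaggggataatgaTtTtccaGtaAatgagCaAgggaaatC
Akr1c12: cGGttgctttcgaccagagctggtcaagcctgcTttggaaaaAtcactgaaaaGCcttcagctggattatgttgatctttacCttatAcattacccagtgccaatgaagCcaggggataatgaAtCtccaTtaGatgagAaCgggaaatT
Akr1b8: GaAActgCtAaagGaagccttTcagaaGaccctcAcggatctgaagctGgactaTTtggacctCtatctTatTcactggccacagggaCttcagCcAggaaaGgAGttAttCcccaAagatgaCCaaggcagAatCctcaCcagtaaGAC
Akr1b10: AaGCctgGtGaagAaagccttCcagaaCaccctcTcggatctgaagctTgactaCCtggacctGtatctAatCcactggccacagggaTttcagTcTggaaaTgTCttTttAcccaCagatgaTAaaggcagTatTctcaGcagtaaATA
Of all 50-base windows of the Akr1c13 coding sequence, 37.1% also occurred in Akr1c12, and 15.3% of 100-base windows did. For Akr1b3, 88.9% of 50-base windows recurred in other transcripts. The pseudogenes Gm6644, Gm6736 and Gm12138 held 83.4%, 72.5% and 60.6% of all its 50-base windows. These pseudogenes had 0 to 3 counts in any library. The remaining 8 members shared at most 4.66% of such windows. No source used here says how reads with more than 1 match were counted, so the split between Akr1c13 and Akr1c12 and the level of Akr1b3 are uncertain.

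Promoter sequence from RefSeq (GRCm38.p6) was found for 8 of the 10 members. The 300-base windows, from 250 bases before the start site to 50 after it, were searched on both strands for TGACNNNGC (N is any base), the core of the antioxidant response element. It occurred in 12.4% of 32851 promoter windows in the table and in 1 of the 8 members' windows, that of Akr1c19, on the minus strand 8 bases past the start site. The first 270 bases of that window are shown with the match in capitals, beside those of Akr1b8 and Akr1c13, members that were higher with AdipoRonPEG5 and whose windows held no match. They lie at chr13:4233490-4233759 for Akr1c19, chr6:34353896-34354165 for Akr1b8 and chr13:4190937-4191206 for Akr1c13, each on the plus strand.
Akr1c19 promoter: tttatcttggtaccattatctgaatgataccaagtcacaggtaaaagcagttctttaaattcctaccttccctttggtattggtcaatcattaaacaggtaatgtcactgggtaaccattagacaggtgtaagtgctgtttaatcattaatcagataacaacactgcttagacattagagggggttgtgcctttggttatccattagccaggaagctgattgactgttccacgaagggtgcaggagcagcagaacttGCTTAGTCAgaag
Akr1b8 promoter: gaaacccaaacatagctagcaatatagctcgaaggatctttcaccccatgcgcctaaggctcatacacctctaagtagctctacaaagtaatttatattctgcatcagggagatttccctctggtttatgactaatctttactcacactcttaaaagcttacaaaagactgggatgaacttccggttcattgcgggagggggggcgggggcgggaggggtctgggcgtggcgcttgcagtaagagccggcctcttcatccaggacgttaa
Akr1c13 promoter: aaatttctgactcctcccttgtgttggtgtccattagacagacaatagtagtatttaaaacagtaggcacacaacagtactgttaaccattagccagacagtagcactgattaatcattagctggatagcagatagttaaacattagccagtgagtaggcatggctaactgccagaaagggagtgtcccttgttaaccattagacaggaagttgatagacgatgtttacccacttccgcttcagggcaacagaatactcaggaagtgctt
A match describes letters in this window and is not a measured binding site.

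Levels between genes were compared by the deposited FPKM, which divide by gene length. In AdipoRonPEG5 livers Akr1c6, a 17-beta-hydroxysteroid dehydrogenase, stood far above the rest at 881 ± 56.6 FPKM. It was followed by Akr7a5 at 155 ± 8.85, Akr1c14 at 121 ± 6.91, Akr1c13 at 97.0 ± 6.90, Akr1c20 at 88.6 ± 3.01, Akr1d1 at 66.6 ± 6.64 and Akr1c19 at 51.4 ± 7.19 FPKM (SD, n = 3). Akr1b3 at 3.68 ± 0.744 FPKM and Akr1b8 at 1.59 ± 0.303 FPKM were low, and Akr1b7 was at 0.062 ± 0.029 FPKM.

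With AdipoRon the order changed at 2 places, Akr1c14 (153 ± 6.62 FPKM) standing above Akr7a5 (136 ± 4.44) and Akr1c20 (88.1 ± 5.34) above Akr1c13 (75.7 ± 2.66). In vehicle livers Akr1c6 was at 854 ± 87.6 FPKM, Akr7a5 at 141 ± 7.50, Akr1c14 at 136 ± 21.3, Akr1c20 at 78.9 ± 14.9, Akr1c13 at 71.4 ± 10.9, Akr1d1 at 67.3 ± 20.6, Akr1c19 at 34.3 ± 11.9, Akr1b3 at 1.92 ± 0.322, Akr1b8 at 0.889 ± 0.077 and Akr1b7 at 0.019 ± 0.032 FPKM. In both compound groups the ranges of neighbours in the order did not overlap. In vehicle livers Akr7a5 overlapped Akr1c14, Akr1c20 overlapped Akr1c13, and Akr1c13 overlapped Akr1d1. Summed over the 10 members, the FPKM came to 1466 ± 71.1 with AdipoRonPEG5, 1388 ± 20.3 with AdipoRon and 1387 ± 172 in vehicle. FPKM are scaled by total counts alone, so these sums do not serve to compare the groups. By the TMM-scaled CPM used for that below, Akr1c6 was at 1211 ± 48.5 with AdipoRonPEG5 and 1244 ± 93.1 in vehicle, the reverse of its FPKM order.

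**Figure D1:**
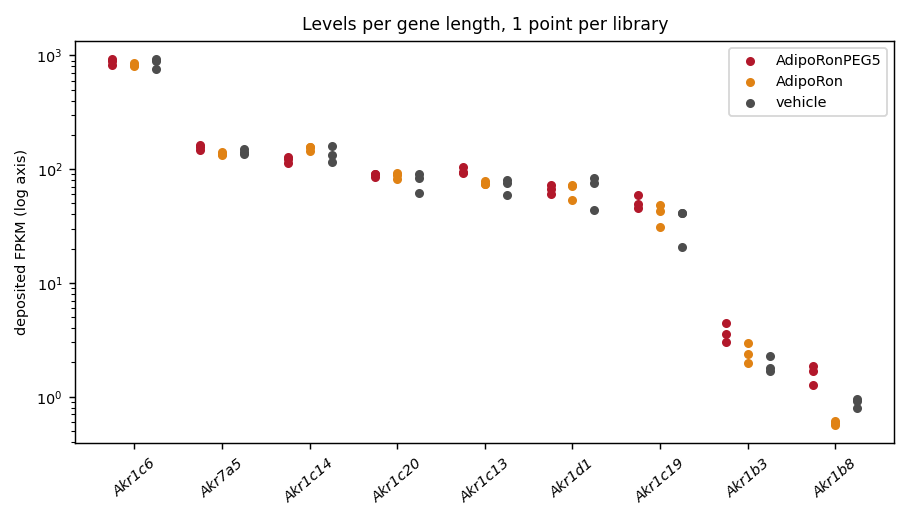
Deposited FPKM on a log axis for 9 members, 1 point per library, in AdipoRonPEG5, AdipoRon and vehicle livers from left to right within each gene. Akr1c6 lies near 881 FPKM with AdipoRonPEG5 and 854 FPKM in vehicle, and Akr1b3 and Akr1b8 lie below 5 FPKM. FPKM are scaled by total counts and serve here to compare genes, not groups. Akr1b7, with 0 to 2 counts per library, is not drawn.

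Groups were compared on the read counts with edgeR's quasi-likelihood test across 13151 genes, at a Benjamini-Hochberg adjusted p of 0.05, and levels are given as TMM-scaled CPM, reads relative to library size. Of the 10 members 9 had enough counts to be tested. With AdipoRonPEG5 against vehicle 3 of the 9 were higher (Akr1b3, Akr1b8 and Akr1c13), 0 were lower and 6 did not pass, with a median log2 fold change of 0.086. Among all genes tested 17.2% passed, 9.55% as higher and 7.63% as lower, with a median log2 fold change of -0.0013. At an unadjusted p of 0.05, 4 members were higher and 1 lower. By limma-voom 3 were higher and 0 lower, and by DESeq2 2 and 0.

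With AdipoRon against vehicle 0 of the 9 members passed in edgeR, limma-voom or DESeq2, and 1 was lower at an unadjusted p of 0.05 (median log2 fold change -0.013). Of all genes 5.2% passed there, 3.8% as higher and 1.4% as lower, with a median of 0.0057. Between the compounds, AdipoRonPEG5 against AdipoRon, 2 members were higher (Akr1b8 and Akr1c13), 0 were lower and 7 did not pass (median 0.21). At an unadjusted p of 0.05, 4 were higher and 1 lower. By limma-voom 2 were higher and 0 lower, and by DESeq2 2 and 1. Of all genes 5.39% passed in that comparison, 2.68% as higher and 2.71% as lower, with a median of -0.013. The comparisons of each compound with vehicle share the vehicle libraries.

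**Figure D2:**
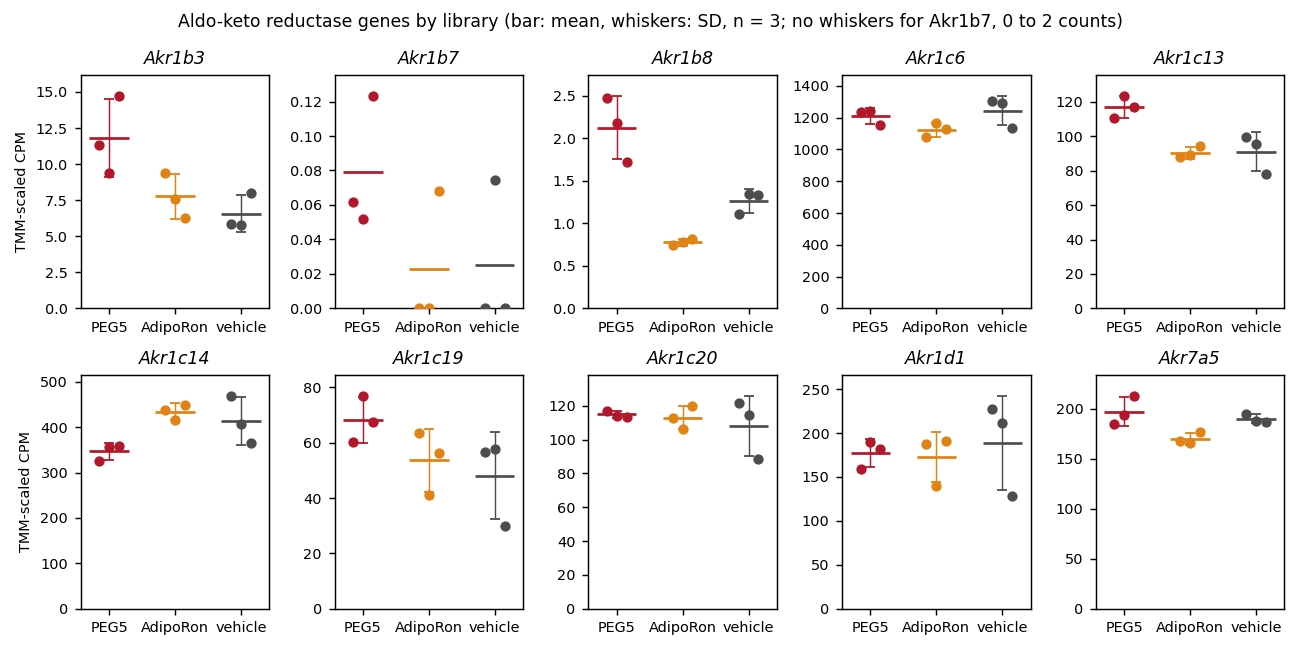
TMM-scaled CPM of each member, 1 point per library, with the mean as a bar and the SD as whiskers (n = 3 per group); each panel has its own axis from 0. The AdipoRonPEG5 points lie above all vehicle points for Akr1b3, Akr1b8, Akr1c13 and Akr1c19, and below them for Akr1c14. Akr1c14 and Akr1c19 did not pass the test against vehicle. The share of all tested genes whose groups separate in this way was not counted, so separation alone says little about the members. The same holds for the separations given below.

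The Akr1b genes, which lie together in the RefSeq annotation, were low in liver, and 2 of the 3 members among them rose with AdipoRonPEG5; their neighbour Akr1b10, which is not a member, is described further on. Akr1b3, the aldose reductase, was at 11.4, 9.40 and 14.7 CPM in the AdipoRonPEG5 libraries, 9.38, 7.61 and 6.29 CPM in the AdipoRon libraries and 5.86, 5.75 and 8.03 CPM in the vehicle libraries. Every AdipoRonPEG5 library was above every vehicle and every AdipoRon library, the closest pair being AdipoRonPEG5 2 and AdipoRon 1, while AdipoRon and vehicle overlapped. Against vehicle Akr1b3 was 1.82-fold higher with AdipoRonPEG5 (log2 fold change 0.86 ± 0.21 (SE), edgeR adjusted p = 0.0164). The log2 fold change was 0.26 with AdipoRon (95% confidence interval -0.21 to 0.73, adjusted p = 0.515). Between the compounds the log2 difference was 0.60 (0.15 to 1.05), which did not pass (adjusted p = 0.116). The call against vehicle was lost without AdipoRonPEG5 3, vehicle 1 or vehicle 2, with adjusted p of 0.0688, 0.0631 and 0.0650.

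Akr1b8, an aldose reductase-like enzyme that reduces aldehydes including retinal, was at 2.47, 2.18 and 1.73 CPM with AdipoRonPEG5, at 0.740, 0.778 and 0.820 CPM with AdipoRon and at 1.11, 1.35 and 1.34 CPM in vehicle. The groups did not overlap: AdipoRonPEG5 lay above vehicle and AdipoRon below it. These levels rest on 28 to 42 reads per AdipoRonPEG5 library, 12 to 14 per AdipoRon library and 18 to 43 per vehicle library. Between the compounds Akr1b8 was 2.72-fold higher with AdipoRonPEG5 (95% confidence interval 1.84- to 4.01-fold, log2 fold change 1.44, adjusted p = 0.0121). This was called under all 19 alternatives tried, with adjusted p of 0.00355 to 0.0490. Against vehicle the log2 fold change was 0.78 with AdipoRonPEG5 (0.26 to 1.30, adjusted p = 0.0448) and -0.66 with AdipoRon (-1.25 to -0.075, adjusted p = 0.176). The call with AdipoRonPEG5 was lost in 14 of 19 alternatives, among them 8 of the 9 that leave out 1 library (all but AdipoRonPEG5 3), with adjusted p up to 0.174.

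Akr1b7, known as the vas deferens protein and as a reductase of isocaproaldehyde in the mouse adrenal, was at or near 0. It had 1, 1 and 2 counts with AdipoRonPEG5, 0, 0 and 1 with AdipoRon and 0, 1 and 0 in vehicle, at or below the floor of 3 counts per library, and was not tested. The 6 adrenal cortex markers summed to 3.89 to 4.31 CPM with AdipoRonPEG5, 3.15 to 5.94 CPM with AdipoRon and 2.70 to 4.63 CPM in vehicle, and Mc2r, the ACTH receptor, was at 0 in every library. Of these markers 2 could be tested and 0 passed in any comparison by edgeR, limma-voom or DESeq2, with 1 higher at an unadjusted p of 0.05 for each compound against vehicle.

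Among the Akr1c genes, which lie in 1 cluster in the RefSeq annotation, Akr1c13 alone of the 5 members passed the test. Akr1c13, an NAD-dependent hydroxysteroid and xenobiotic alcohol dehydrogenase, was at 111, 123 and 117 CPM with AdipoRonPEG5, at 87.6, 89.0 and 94.4 CPM with AdipoRon and at 99.5, 95.6 and 78.1 CPM in vehicle. All AdipoRonPEG5 libraries were above all others, and AdipoRon lay within the range of vehicle. Akr1c13 was 1.28-fold higher than in vehicle (log2 fold change 0.36 ± 0.094 (SE), adjusted p = 0.0238) and 1.30-fold higher than with AdipoRon (0.37 ± 0.094, adjusted p = 0.0446). With AdipoRon against vehicle the log2 fold change was -0.013 (-0.22 to 0.19).

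Both calls of Akr1c13 depended on single libraries. The call against vehicle was lost without AdipoRonPEG5 2, AdipoRonPEG5 3 or vehicle 2 (adjusted p of 0.0901, 0.0642 and 0.0513). The call between the compounds was lost with total-count scaling (adjusted p = 0.0815) and without any 1 AdipoRonPEG5 library, any 1 AdipoRon library or vehicle 2 (adjusted p of 0.0654 to 0.150). When the counts of Akr1c13 and Akr1c12 were summed, a choice made after seeing the data, the log2 fold change was 0.31 against vehicle (adjusted p = 0.0397) and 0.28 against AdipoRon (adjusted p = 0.0971).

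Akr1c14, a 3-alpha-hydroxysteroid dehydrogenase, went the other way without passing the test. It was at 325, 356 and 359 CPM with AdipoRonPEG5, at 439, 415 and 450 CPM with AdipoRon and at 469, 407 and 364 CPM in vehicle. All AdipoRonPEG5 libraries were below all others, and AdipoRon overlapped vehicle. The log2 fold change with AdipoRonPEG5 was -0.25 against vehicle (-0.48 to -0.032, adjusted p = 0.110) and -0.33 against AdipoRon (-0.55 to -0.10, adjusted p = 0.0908). Without vehicle 3 both passed, with adjusted p of 0.0258 and 0.0377, and the difference between the compounds also passed with DESeq2 (0.0333) and when only those 2 groups were fitted (0.0459).

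Akr1c19, a dehydrogenase of alicyclic alcohols and the member with the motif in its promoter window, was at 60.1, 76.8 and 67.6 CPM with AdipoRonPEG5, at 63.4, 41.3 and 56.2 CPM with AdipoRon and at 56.6, 57.7 and 30.0 CPM in vehicle. The AdipoRonPEG5 libraries were all above vehicle and overlapped AdipoRon. The log2 fold change against vehicle was 0.50 (0.0027 to 0.99, adjusted p = 0.157), and against AdipoRon 0.35 (-0.15 to 0.84, adjusted p = 0.403).

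Akr1c6 and its near copy Akr1c20 overlapped between all 3 groups. Akr1c6 was at 1233, 1244 and 1155 CPM with AdipoRonPEG5, at 1078, 1167 and 1125 CPM with AdipoRon and at 1306, 1289 and 1137 CPM in vehicle. Akr1c20 was at 117, 114 and 113 CPM with AdipoRonPEG5, at 113, 106 and 120 CPM with AdipoRon and at 122, 115 and 88.3 CPM in vehicle. For AdipoRonPEG5 against vehicle the log2 fold change of Akr1c6 was -0.039 (-0.24 to 0.16) and that of Akr1c20 was 0.086 (-0.15 to 0.32). Between the compounds these were 0.11 (-0.091 to 0.31) for Akr1c6 and 0.025 (-0.21 to 0.26) for Akr1c20. Counts were also summed over the Akr1c genes, with the non-members Akr1c12, Akr1c18 and Akr1c21 included and Akr1c6 as the largest part. That sum had a log2 fold change of -0.021 with AdipoRonPEG5 against vehicle (-0.23 to 0.19). It was -0.064 with AdipoRon against vehicle (-0.27 to 0.15) and 0.042 between the compounds (-0.17 to 0.25).

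**Figure D3:**
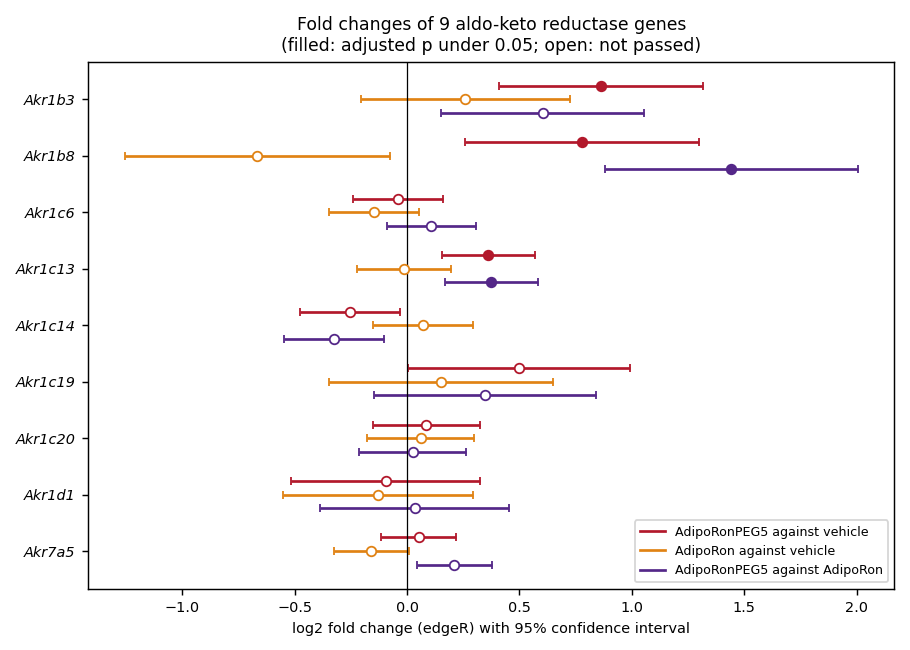
Log2 fold changes of 9 members with 95% confidence intervals from edgeR, for AdipoRonPEG5 against vehicle (red), AdipoRon against vehicle (orange) and AdipoRonPEG5 against AdipoRon (purple); filled points passed an adjusted p of 0.05 and open points did not. Akr1b8 has the highest value, 1.44 for AdipoRonPEG5 against AdipoRon, and no orange point is filled.

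Akr1d1, the steroid 5-beta-reductase, was at 159, 190 and 182 CPM with AdipoRonPEG5, at 187, 140 and 191 CPM with AdipoRon and at 227, 211 and 128 CPM in vehicle. The vehicle libraries spanned both other groups, vehicle 3 being the lowest of all 9. The log2 fold change was -0.095 with AdipoRonPEG5 (-0.52 to 0.33, adjusted p = 0.781), -0.13 with AdipoRon (-0.55 to 0.29, adjusted p = 0.749) and 0.034 between the compounds (-0.39 to 0.46, adjusted p = 0.938).

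Akr7a5 was at 185, 194 and 213 CPM with AdipoRonPEG5, at 168, 166 and 177 CPM with AdipoRon and at 195, 188 and 187 CPM in vehicle. The AdipoRon libraries were below all vehicle and all AdipoRonPEG5 libraries. The log2 fold change was -0.16 with AdipoRon against vehicle (-0.32 to 0.0088, adjusted p = 0.252) and 0.21 between the compounds (0.044 to 0.38, adjusted p = 0.135), neither of which passed. For AdipoRonPEG5 against vehicle it was 0.053 (-0.11 to 0.22).

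Some libraries stood apart. The acute phase gene Saa1 had 1952 CPM in AdipoRonPEG5 1 and 4959 CPM in vehicle 3, and 45.1 to 497 CPM in the rest. Vehicle 3 was the lowest of the 9 libraries for 4 of the 9 tested members (Akr1c13, Akr1c19, Akr1c20 and Akr1d1), beside 16.2% of all tested genes with their lowest value there. Relative to the mean of vehicle 1 and vehicle 2, vehicle 3 held 0.525 of the level of Akr1c19, 0.584 of Akr1d1, 0.747 of Akr1c20 and 0.801 of Akr1c13, and 1.38 times that of Akr1b3. With vehicle 3 and AdipoRonPEG5 1 both left out, 2 members (Akr1b3 and Akr1c13) were higher with AdipoRonPEG5 than in vehicle and 2 (Akr1b8 and Akr1c13) were higher than with AdipoRon.

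**Figure D4:**
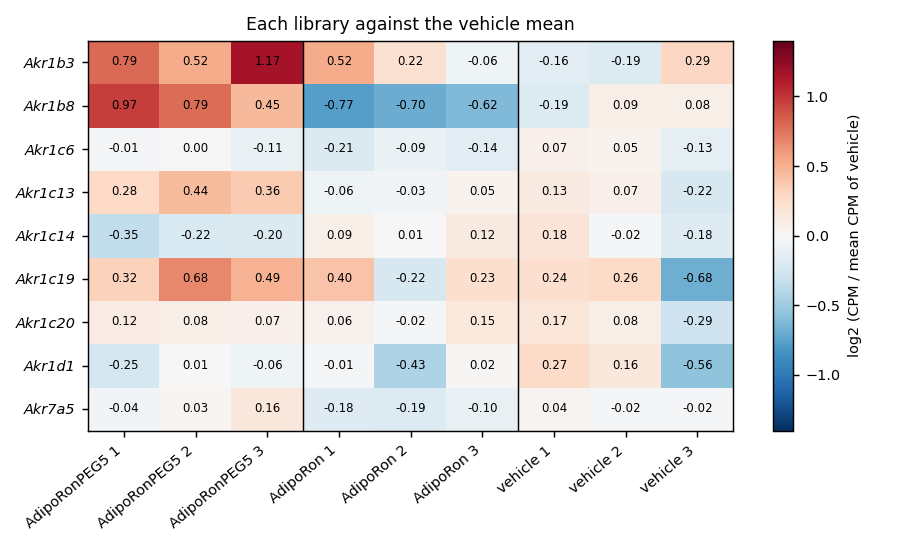
Log2 ratio of each library's CPM to the mean CPM of the 3 vehicle libraries, for 9 members (rows) in 9 libraries (columns), red above and blue below. Akr1b8 is red in all AdipoRonPEG5 libraries and blue in all AdipoRon libraries, and vehicle 3 is blue for Akr1c19, Akr1d1, Akr1c20 and Akr1c13.

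Markers of immune cells moved with the compounds. The 12 macrophage and Kupffer cell markers summed to 781 to 790 CPM with AdipoRonPEG5, 490 to 859 CPM with AdipoRon and 203 to 294 CPM in vehicle; 12 of 12 were higher with AdipoRonPEG5 and 11 of 12 with AdipoRon, and none was at 0. The 8 lymphocyte markers summed to 18.2 to 19.1 CPM with AdipoRonPEG5, 14.6 to 21.8 CPM with AdipoRon and 5.08 to 6.32 CPM in vehicle. Of the 6 tested, 5 were higher with AdipoRonPEG5 and 3 with AdipoRon than in vehicle. Among those called, Ccl5 and Cd79b had enough counts to be tested only because of the compound groups. They were high there, which limits these counts. Of all genes tested, 9.55% were higher and 7.63% lower with AdipoRonPEG5, and 3.8% higher and 1.4% lower with AdipoRon. The 6 hepatocyte markers were at 74313 to 82370 CPM with AdipoRonPEG5, 67921 to 75345 CPM with AdipoRon and 80062 to 88245 CPM in vehicle, and none was at 0. With AdipoRonPEG5 against vehicle 2 of 6 were lower and 0 higher by edgeR, limma-voom and DESeq2. With vehicle 3 and AdipoRonPEG5 1 both left out, 0 were lower. With AdipoRon against vehicle 0 passed by edgeR or limma-voom, and 2 were lower by DESeq2. Within each of the 3 groups the libraries stood in the same order for Akr1b3 as for the macrophage sum. In no group did they for Akr1b8 or Akr1c13. These orders rest on 3 libraries each and are a description only. With AdipoRonPEG5 the sums hardly differed (781 to 790 CPM), so the order there says little. In AdipoRon 1, where the macrophage sum was above that of every AdipoRonPEG5 library, Akr1b3 was at 9.38 CPM, the highest AdipoRon value, and Akr1b8 was at 0.740 CPM, the lowest of the 9 libraries. The part of these cells in the levels of Akr1b3, Akr1b8 and Akr1c13 was not tested, and in bulk tissue fewer cells of a type and less RNA per cell cannot be told apart.

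**Figure D5:**
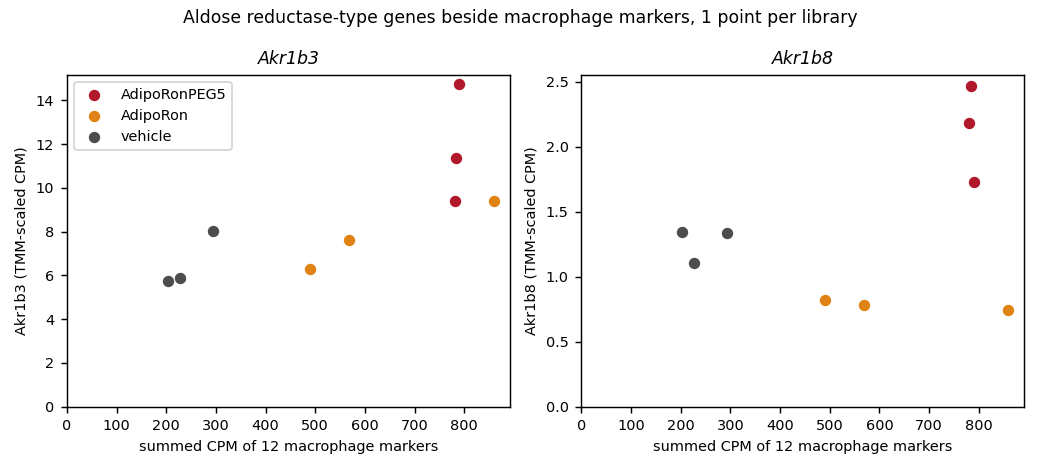
CPM of Akr1b3 (left) and Akr1b8 (right) against the summed CPM of 12 macrophage and Kupffer cell markers, 1 point per library, both axes from 0. The AdipoRonPEG5 libraries sit at 781 to 790 on the marker axis and AdipoRon 1 at 859, where Akr1b3 is at 9.38 CPM and Akr1b8 at 0.740 CPM. Within each group Akr1b3 is higher where the marker sum is higher, though the AdipoRonPEG5 sums hardly differ and each group has 3 libraries.

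Other genes of the superfamily were set beside the members. Of 10, 7 could be tested: 3 were higher with AdipoRonPEG5 than in vehicle, 1 was higher than with AdipoRon, and 0 passed with AdipoRon against vehicle in edgeR, limma-voom or DESeq2 (2 were higher at an unadjusted p of 0.05). Among the 3 is Kcnab2, tested only because of its AdipoRonPEG5 counts. Of all genes tested, 9.55% were higher with AdipoRonPEG5 than in vehicle and 2.68% higher than with AdipoRon. Akr1a1, the aldehyde reductase that makes gulonate for vitamin C synthesis in mice, was at 509, 542 and 544 CPM with AdipoRonPEG5, at 374, 350 and 398 CPM with AdipoRon and at 417, 377 and 348 CPM in vehicle. All AdipoRonPEG5 libraries were above all others. Its log2 fold change was 0.48 against vehicle (0.28 to 0.68, adjusted p = 0.00603) and 0.51 against AdipoRon (0.30 to 0.71, adjusted p = 0.0140), the second lost without AdipoRonPEG5 2 (adjusted p = 0.0600).

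Akr1b10, the neighbour of Akr1b8, was at 2.10, 2.13 and 1.85 CPM with AdipoRonPEG5, at 1.97, 1.44 and 0.888 CPM with AdipoRon and at 0.540, 0.374 and 1.19 CPM in vehicle. Its AdipoRon libraries overlapped vehicle, where those of Akr1b8 lay below it. It was higher with AdipoRonPEG5 than in vehicle (log2 fold change 1.60, 0.73 to 2.46, adjusted p = 0.0190), a call lost without AdipoRonPEG5 2, vehicle 1 or vehicle 2 (adjusted p up to 0.0870). Kcnab2, a potassium channel beta subunit of the same fold, was higher too (log2 fold change 2.46, 1.20 to 3.72, adjusted p = 0.0144), on 14 to 24 reads per AdipoRonPEG5 library and 2 to 5 per vehicle library. It had enough counts to be tested only because of the AdipoRonPEG5 libraries, where it was high, which limits this call. That call was lost without AdipoRonPEG5 3, without vehicle 1, and without AdipoRonPEG5 1 and vehicle 3 together (adjusted p up to 0.0818). Akr1c12 had a log2 fold change of 0.25 with AdipoRonPEG5 against vehicle (0.061 to 0.44, adjusted p = 0.0681), and Akr1e1, Kcnab1 and Kcnab3 had 0.0059, 0.016 and -0.016. Akr1c18, Akr1c21 and Akr1cl had at most 9 counts in any library.

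Genes that work beside the members were taken from lists. Of all genes tested, 9.55% were higher and 7.63% lower with AdipoRonPEG5 than in vehicle. Against AdipoRon 2.68% were higher and 2.71% lower. These shares apply to every list below. Of 12 partners of Akr1d1 in bile acid synthesis, 0 were higher and 3 lower with AdipoRonPEG5 than in vehicle (median log2 fold change -0.24): Scp2, a sterol carrier protein and thiolase (-0.37, adjusted p = 0.0251), Baat, which joins bile acids to amino acids (-0.27, adjusted p = 0.0258), and Slc27a5, the bile acyl-CoA synthetase (-0.32, adjusted p = 0.0278). Each of the 3 calls was lost in 6 to 9 of 19 alternatives. Higher were 0 also at an unadjusted p of 0.05, by limma-voom and by DESeq2. Against AdipoRon 1 was lower, Scp2 (-0.39, adjusted p = 0.0457), a call lost in 10 of 19 alternatives, among them without any 1 AdipoRonPEG5 or AdipoRon library (adjusted p up to 0.153). Of 15 steroid-reducing and oxidising enzymes, 1 was higher and 3 were lower than in vehicle (median -0.10). Against AdipoRon 0 passed in edgeR or limma-voom, with 1 higher and 4 lower at an unadjusted p of 0.05 and 2 lower by DESeq2. Cyp17a1, a steroid hydroxylase and lyase, was at 5.48 ± 0.800 CPM with AdipoRonPEG5 and 21.8 ± 6.89 CPM in vehicle (95% confidence interval of the log2 fold change -2.81 to -1.19, adjusted p = 0.00484). Hsd3b3, a 3-beta-hydroxysteroid dehydrogenase, fell by 0.52 on the log2 scale (adjusted p = 0.00310), and Srd5a3, a polyprenol reductase, rose by 0.54 (adjusted p = 0.00742).

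Downstream of Akr1b3, 1 of 5 polyol and fructose genes passed: Khk, the fructokinase, was at 479 ± 17.0 CPM with AdipoRonPEG5, 751 ± 46.3 CPM with AdipoRon and 761 ± 80.4 CPM in vehicle. Its log2 fold change was -0.67 against vehicle (adjusted p = 0.00167) and -0.65 against AdipoRon (adjusted p = 0.00622). Of 19 tested carbonyl reductases and aldehyde-detoxifying enzymes, 5 were higher and 3 lower with AdipoRonPEG5 than in vehicle (median 0.060), and 4 were higher and 0 lower than with AdipoRon (3 lower at an unadjusted p of 0.05, 0 by limma-voom and 1 by DESeq2). Cbr3, a carbonyl reductase, was at 6.69 ± 1.14 CPM with AdipoRonPEG5, 0.732 ± 0.102 CPM with AdipoRon and 0.460 ± 0.192 CPM in vehicle, a log2 fold change of 3.89 against vehicle (adjusted p = 2.24e-05). Outside the AdipoRonPEG5 libraries Cbr3 rested on few counts, 9 to 14 reads per AdipoRon library and 4 to 16 per vehicle library. Cbr1, its relative, was at 168 ± 8.77, 69.6 ± 4.64 and 78.6 ± 16.3 CPM in the same order (1.09 against vehicle, adjusted p = 0.000591), and Aldh3b1, an aldehyde dehydrogenase, had a log2 fold change of 1.47 (adjusted p = 0.00281).

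With AdipoRon against vehicle none of the bile acid, steroid, polyol and carbonyl genes passed in edgeR or limma-voom. At an unadjusted p of 0.05 there were 2 bile acid genes lower, 1 steroid gene lower, 0 polyol genes and 2 carbonyl genes higher with 3 lower, and by DESeq2 1 carbonyl gene was lower. The medians of the log2 fold change were -0.058, -0.13, -0.018 and -0.032.

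Of 19 tested NRF2 targets outside the family, 14 were higher and 0 lower with AdipoRonPEG5 than in vehicle (median 0.82), 3 were higher with AdipoRon (median 0.12) and 8 were higher with AdipoRonPEG5 than with AdipoRon (median 0.37). Of all genes tested, 9.55%, 3.8% and 2.68% were higher in these comparisons. Gsta1, counted among the 14 and the 8, had enough counts to be tested only because of the AdipoRonPEG5 libraries. It was high there, which limits its part in both counts. This list and the others were chosen with earlier results of these data known, so their counts are not independent support. Gstm1, a glutathione transferase, was at 6006 ± 378 CPM with AdipoRonPEG5, 554 ± 107 CPM with AdipoRon and 523 ± 127 CPM in vehicle. Of 6 enzymes that supply NADPH, the reductant of many members, 3 were higher with AdipoRonPEG5 than in vehicle (median 0.40): Pgd (0.71), G6pdx (0.82) and Tkt (0.52), 3 enzymes of the pentose phosphate pathway. All 3 are among the NRF2 targets as well. With AdipoRon against vehicle 1 of the 6 was higher (median 0.29), Pgd (0.48, edgeR adjusted p = 0.0424), a call lost in 9 of 19 alternatives. Between the compounds 0 of the 6 passed in edgeR or limma-voom (median 0.27), and by DESeq2 2 were higher and 1 lower. Of 8 tested targets of the xenobiotic receptors CAR and PXR, 0 were higher (1 at an unadjusted p of 0.05, 0 by limma-voom and DESeq2) and 2 lower (median -0.066), with Cyp3a11, a drug-metabolising cytochrome P450, at 40.6 ± 16.3 CPM with AdipoRonPEG5 and 530 ± 338 CPM in vehicle.

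The genes whose pattern was most like that of each called member were ranked by Pearson's r of log2 CPM over the 9 libraries, among 13117 genes, as a description. For Akr1b3 these were Tapbp (r = 0.97) and Arhgdia (r = 0.96). For Akr1b8 they were Tmbim4 (r = 0.96) and Tinf2 (r = 0.96), and for Akr1c13 Ugt2b36 (r = 0.99) and Cyp2a5 (r = 0.98). The 9 points share their libraries' group, depth and scaling. Between AdipoRonPEG5 and vehicle the log2 fold change was 0.64 for Tapbp, 0.58 for Arhgdia, 0.19 for Tmbim4, 0.40 for Tinf2, 0.39 for Ugt2b36 and 1.48 for Cyp2a5.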

How the data were processed

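The deposited table gives read counts per gene for 9 liver libraries, and the authors' FPKM for the same genes. Per the submitters' processing notes the tools were edgeR, DESeq2, HTSeq 0.6.1, TopHat and STAR 2.5, without the role of each. Genome build, strand setting and the handling of reads with several matches are not stated in the sources used here. The implied FPKM length was a whole number within 0.01 for 99.995% of nonzero values, so FPKM are scaled by total counts. Members were matched by symbol. The members and gene lists were chosen with earlier results of these data known.

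All 9 libraries entered 1 edgeR 4.0.16 fit in R 4.3.3 (TMM, filterByExpr, quasi-likelihood, no replicate block), with Benjamini-Hochberg adjustment over 13151 genes in each of 3 comparisons. CPM are TMM-scaled, and likeness used log2 CPM with a prior count of 2. Alternatives tried were DESeq2 1.42.0, limma 3.58.1 (voom), scaling by RLE or by total counts, testing unfiltered genes or those averaging 1 CPM, a replicate block, only the groups compared, each library left out, AdipoRonPEG5 1 and vehicle 3 both left out, and vehicle 1 thinned to 15860547 counts. Named genes were all members, every tested gene of the superfamily list, up to 3 called genes of each other list by lowest p, and the 2 genes most like each called member; of those up to 3, the text gives values for the lists that bear on the members and 1 gene each of the NRF2 and CAR and PXR lists. The fit was tested on simulated data. No 2 libraries of a group were alike within sampling noise (chi-square per gene of 10.5 to 148). Lists of endothelial, stellate, cholangiocyte, adipose, gut and pancreas markers were also counted: with AdipoRonPEG5 against vehicle, 1 of 6, 1 of 7 and 0 of 6 tested were higher and 0 lower in the first 3, and 1 of 2, 1 of 2 and 1 of 1 lower in the last 3. Intervals cover 95%. With 3 libraries a group, their number limits the precision.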

Additional observations from a re-analysis of the deposited data

How the results depend on the processing

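Akr1b3, Akr1b8 and Akr1c13 kept a positive log2 fold change with AdipoRonPEG5 in every alternative, against vehicle and against AdipoRon, and the losses of their calls are given with each gene above. The members that passed against vehicle numbered 0 to 2 with 1 library left out, with 0 to 1 lower, and none lower or higher with AdipoRon. Between the compounds 1 to 2 were higher and 0 to 1 lower with 1 library left out, 1 was higher with total-count scaling, and 1 was lower when only the 2 groups were fitted and with DESeq2. The cause of these changes was not tested.

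With 1 library left out, the genes called higher and lower, of all genes, ranged from 800 to 1288 and 536 to 1046 for AdipoRonPEG5 against vehicle (1256 and 1004 in all libraries), 201 to 471 and 41 to 177 for AdipoRon against vehicle (500 and 184), and 135 to 551 and 98 to 481 between the compounds (352 and 357). Total-count scaling gave 1700 and 584 for AdipoRonPEG5 against vehicle and 883 and 64 for AdipoRon, so that 74.4% and 93.2% of the calls were higher, in place of 55.6% and 73.1% with TMM, and it moved the median of all genes by 0.082 and 0.098. For AdipoRon against vehicle, a fit of the 2 groups gave 256 higher and 69 lower, and DESeq2 gave 365 lower.

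Same-numbered libraries did not deviate together (r of -0.27 to 0.077, and 0 of 9 libraries correlated best with their own number). The labels do not say what a shared number means, and with 3 libraries a group this check cannot exclude a shared batch. With a replicate block 1 member was higher between the compounds, Akr1b8 and not Akr1c13, with 190 genes higher and 148 lower of all; for AdipoRon against vehicle 79 genes were lower; and Akr1b8 was not called against vehicle.

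None of the fold changes that turned sign had passed the test. With total-count scaling these were Akr1c6 (0.044) and Kcnab3 (0.062) for AdipoRonPEG5 against vehicle and Akr1c13 for AdipoRon against vehicle (0.083). With the counts of Akr1c12 and Akr1c13 summed, AdipoRon against vehicle was also positive (0.023). With AdipoRonPEG5 1 and vehicle 3 both left out they were, for AdipoRonPEG5 against vehicle, Akr1c20 (-0.050), Akr1e1 (-0.054), Kcnab1 (-0.41, and -0.10 with limma-voom) and Kcnab3 (0.095); for AdipoRon against vehicle, Akr1c14 (-0.016), Akr1c19 (-0.096) and Akr1c20 (-0.069); and between the compounds Akr1e1 (-0.0020). With 1 library left out, AdipoRonPEG5 against vehicle spanned -0.042 to 0.18 for Akr1c20, -0.31 to 0.058 for Akr1d1, -0.0089 to 0.098 for Akr7a5, -0.071 to 0.083 for Akr1e1, -0.30 to 0.32 for Kcnab1 and -0.38 to 0.13 for Kcnab3. AdipoRon against vehicle spanned -0.12 to 0.049 for Akr1c13, -0.018 to 0.16 for Akr1c14, -0.099 to 0.30 for Akr1c19, -0.071 to 0.15 for Akr1c20 and -0.35 to 0.021 for Akr1d1. Between the compounds the spans were -0.013 to 0.071 for Akr1c20, -0.092 to 0.11 for Akr1d1, -0.0090 to 0.14 for Akr1e1 and -0.24 to 0.033 for Cyp3a25. Outside the members, over all alternatives, AdipoRon against vehicle spanned -0.094 to 0.072 for Akr1a1, -0.038 to 0.15 for Akr1c12, -0.13 to 0.047 for Akr1e1, -0.046 to 0.12 for Scp2, -0.11 to 0.079 for Khk, -0.11 to 0.22 for Gstm1, -0.52 to 0.43 for Cyp3a11, and, among list genes given no value above, -0.75 to 0.90 for Gsta1 and -0.79 to 1.89 for Cfd. Between the compounds the marker genes Serpina1a (-0.14 to 0.0070), Ptprc (-0.17 to 0.099) and Cdh5 (-0.077 to 0.23) turned sign as well. Low counts limit Akr1b8, Akr1b10, Kcnab1, Kcnab2 and Kcnab3, and Akr1b7 lay at or below the floor of 3 counts.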
